A study of Mus musculus with 28 samples.

Results

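Mt1, Mt2 and Slc30a1 are 3 of the 50600 genes in the deposited RNA-seq table, picked by name: Mt1 and Mt2 encode the widely expressed metallothioneins, and Slc30a1 encodes ZnT1, the zinc exporter of the plasma membrane. Mt1 and Mt2 were picked because they were already known to stand among the genes most raised in p38i cells on day 1 of induction, so every value that uses a p38i or DMSO library of that day is given as a description, with no test. The table's 28 mouse libraries form 14 groups of 2. The cells are primary embryonic fibroblasts (MEFs), with wild-type genotype on the labels and an Oct4-GFP reporter (OG2) in the study's methods, isolated from mid-gestation embryos of OG2 males crossed to 129 females. Before induction there are untreated MEFs and MEFs treated with SB203580, an inhibitor of the p38 MAP kinases (p38i-treated MEFs). All other cells were infected with retroviruses carrying Oct4, Klf4 and Sox2 (OKS) and then switched to iCD1, a defined induction medium, and were collected on days 1, 3, 5 and 7. DMSO cells received no inhibitor, p38i cells received SB203580 during iCD1 induction, and pre-p38i cells received it only before. The labels call the uninduced controls untreated and the induced controls only ctr. DMSO is the study's own name for the latter, and is used for them here. The factors came from viruses that infect each cell to a different extent, so an induced library averages over a mixed population.

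Metallothioneins are small cytosolic proteins whose many cysteines hold zinc, copper and cadmium. Their genes are the textbook targets of MTF-1, a transcription factor that is activated by free zinc and binds metal response elements (MREs) in their promoters. MTF-1 also switches on Slc30a1, whose product pumps zinc out of the cell, so that the 3 genes are commonly read together as a sign of zinc load. Metallothionein genes respond to other inputs as well, among them glucocorticoids, oxidative stress and heavy metals.

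The coding sequences of Mt1 and Mt2 are shown to let the reader see what the pair shares. Both come from the GENCODE M21 transcripts Mt1-201 and Mt2-201 on GRCm38, are 186 bases long and code for 61 amino acids. Capitals mark the TGC and TGT codons, which encode cysteine.
Mt1: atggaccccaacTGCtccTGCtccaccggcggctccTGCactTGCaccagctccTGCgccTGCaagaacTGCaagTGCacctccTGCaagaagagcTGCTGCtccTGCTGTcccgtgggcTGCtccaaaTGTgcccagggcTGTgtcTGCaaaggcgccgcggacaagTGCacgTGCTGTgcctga
Mt2: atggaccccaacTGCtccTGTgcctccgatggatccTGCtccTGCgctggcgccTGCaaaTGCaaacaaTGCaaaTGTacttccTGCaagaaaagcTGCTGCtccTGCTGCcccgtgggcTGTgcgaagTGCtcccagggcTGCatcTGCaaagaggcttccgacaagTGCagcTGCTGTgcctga
Each has 20 cysteine codons (32.8% of its codons), and all 20 lie at the same positions in both genes. Slc30a1-201, a membrane transporter of 503 codons, has 18 (3.58%). The Mt1 and Mt2 coding sequences are identical at 148 of 186 bases (79.6%), and their longest identical run is 20 bases. Neither gene has a transcript of another gene with at least 95% identity over 200 bases, apart from Gm45774, an antisense gene that overlaps Mt2 and was listed at 1 or less in every library. 1700034H15Rik, antisense to Slc30a1, was listed at 2 or less. Strand is not stated for these libraries, so reads of a gene and of its antisense partner cannot be told apart.

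Mt1 (ENSMUSG00000031765) spans bases 94179082 to 94180327 on the plus strand of chromosome 8 in GRCm38, with 3 annotated transcripts of 1 to 3 exons. Mt2 (ENSMUSG00000031762) lies on the same strand, from 94172664 to 94173568, with 2 transcripts of 3 exons, and 5513 bases separate its end from the start of Mt1. Slc30a1 (ENSMUSG00000037434) spans 191906767 to 191913247 on the plus strand of chromosome 1, with 2 transcripts of 2 exons. The promoter windows below, taken from RefSeq on GRCm38.p6, are shown because MRE cores are the known docking sites of MTF-1. All 3 genes matched, with 1 window each. Capitals mark MRE cores, searched as TGCACNC or TGCGCNC on both strands. The windows are Mt1 at chr8:94178839-94179081, Mt2 at chr8:94172368-94172617 and Slc30a1 at chr1:191906531-191906766, all on the plus strand. Cores were counted in the 250 bases before the RefSeq start, and print stops at the first base that GENCODE transcribes, after 243 bases for Mt1 and 236 for Slc30a1.
Mt1: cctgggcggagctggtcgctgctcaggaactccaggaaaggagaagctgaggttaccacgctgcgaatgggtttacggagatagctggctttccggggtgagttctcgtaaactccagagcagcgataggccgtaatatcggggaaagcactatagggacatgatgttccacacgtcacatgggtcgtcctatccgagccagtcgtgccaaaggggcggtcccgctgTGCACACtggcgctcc
Mt2: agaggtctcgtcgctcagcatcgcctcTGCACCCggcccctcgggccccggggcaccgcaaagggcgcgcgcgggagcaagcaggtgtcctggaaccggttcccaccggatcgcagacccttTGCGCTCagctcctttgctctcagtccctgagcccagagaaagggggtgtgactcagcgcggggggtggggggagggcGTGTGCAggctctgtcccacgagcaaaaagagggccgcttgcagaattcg
Slc30a1: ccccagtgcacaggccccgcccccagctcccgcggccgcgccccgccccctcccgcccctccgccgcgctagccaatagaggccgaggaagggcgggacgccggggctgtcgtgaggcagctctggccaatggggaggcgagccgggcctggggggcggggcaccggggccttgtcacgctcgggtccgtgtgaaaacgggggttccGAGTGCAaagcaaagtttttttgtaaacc
Mt2 has 3 MRE cores, while Mt1 and Slc30a1 have 1 each. Of 32851 promoter windows of 250 bases, 21.4% hold at least 1 such core and 1.26% at least 3. The core of the antioxidant response element (ARE; TGAC and GC with any 3 bases between them, on both strands), which NRF2 binds, was found once in the windows of Mt2 and of Slc30a1 and not in that of Mt1, against 10.2% of all windows. The first annotated Mt1 start lies upstream of 2 others, by 129 and 159 bases, and the 159 bases in between, which are not printed, hold 4 further MRE cores and 1 ARE core. The Mt2 window ends at 94172617, before the GENCODE start of 94172664, and the bases between them were not searched. The counts thus depend on the start chosen, and these matches describe letters only.

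**Figure D1:**
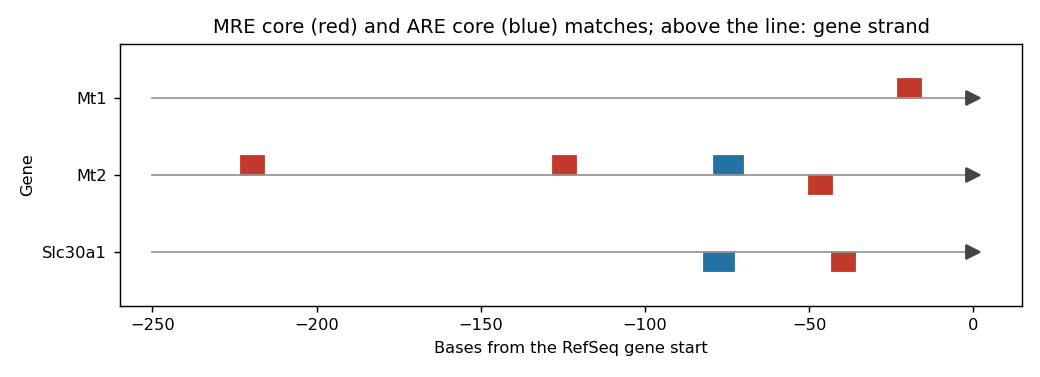
Matches to the MRE core (red) and the ARE core (blue) in the promoter windows of Mt1, Mt2 and Slc30a1, by distance in bases from the RefSeq gene start (arrowhead). Boxes above a line are matches on the gene's strand and boxes below it on the opposite strand. Of the 5 MRE cores in these windows, 3 fall in Mt2. The 4 further MRE cores after the first annotated Mt1 start are not drawn.

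The deposited values are whole numbers that sum to between 991287 and 992537 per library. They were read as TPM (a share of the library's transcripts, scaled to gene length) that the authors rounded down, and the number of reads behind them is unknown. Between 12454 and 14170 genes per library stood at 1 or more. Differences below are on the log2(value + 1) scale with their standard error (SE), and a gene was called where limma, fitted to all 14 groups at once over 13230 genes (mean of 1 or more), gave a Benjamini-Hochberg adjusted p under 0.05. With 2 libraries per group, the smallest p of an exact permutation test is 0.333 for any gene, and each call rests on the spread that limma shares across groups and genes. No label says that replicates came from separate cultures or embryos, and p-values may measure technical spread only. In untreated MEFs, 11 of 12 fibroblast markers stood at 1 or more in at least 1 library (all but Lum). Of 10 epithelial and pluripotency markers, 9 were listed at 0. All 16 macrophage markers also stood at 1 or more in at least 1 library, so presence alone does not set the fibroblast label. The fibroblast markers summed to 12343 to 12450 and the macrophage markers to 349 to 368.

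All 3 genes rose in the course of DMSO induction. Mt1 stood at 219 and 258 in untreated MEFs, at 614 and 652 on day 1, at 1016 and 1073 on day 3, at 1206 and 1199 on day 5 and at 1412 and 1388 on day 7. Mt2 stood at 101 and 109 in untreated MEFs, and then at 387 and 358, at 885 and 913, at 1356 and 1319, and at 1745 and 1724 on days 1, 3, 5 and 7. No library of one of these time points overlapped one of the next for either gene. The share of all genes that separate in this way was not computed, here or for the comparisons below. Slc30a1 stood at 7 and 6 in untreated MEFs, at 7 and 7 on day 1, at 9 and 9 on day 3, at 10 and 11 on day 5 and at 13 and 13 on day 7. Over all 28 libraries, those of p38i and pre-p38i included, Mt1 lay at rank 47 to 727 among all genes and Mt2 at 36 to 1609. Slc30a1 lay at rank 7530 to 9520.

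From untreated MEFs to day 3 of DMSO induction, Mt2 rose by a log2 difference of 3.09 (SE 0.0514, 8.50-fold, adjusted p = 1.5e-20, limma) and Mt1 by 2.13 (SE 0.0612, 4.38-fold, adjusted p = 8.0e-17, limma). Slc30a1 rose by 0.42 (SE 0.152, adjusted p = 0.0200, limma). All 3 were called higher, as were 40.6% of the genes tested, whose median difference was 0.146. From day 3 to day 7 in DMSO, again all 3 were called higher, against 23.4% of all genes tested, with 0.95 for Mt2 (adjusted p = 2.8e-11, limma), 0.42 for Mt1 (adjusted p = 1.5e-05, limma) and 0.49 for Slc30a1 (adjusted p = 0.0141, limma). Slc30a1 is read in steps of 1 on values of 6 to 15, and its calls were less stable than those of the metallothioneins. Quantile normalization, which gives every library the same distribution of values and moves the median of all genes by over 0.1 in this first comparison, took its difference to 0.0029 by day 3 (adjusted p = 0.995, limma) and to 0.40 from day 3 to day 7 (adjusted p = 0.0501, limma). Its call by day 3 was lost without untreated MEF replicate 2 (0.32, adjusted p = 0.141, limma) or without either DMSO library of day 3 (0.42, adjusted p of 0.0651 and 0.0640, limma), and the one from day 3 to day 7 was lost without any of the 4 libraries compared (0.49, adjusted p of 0.0534 to 0.0593, limma).

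**Figure D2:**
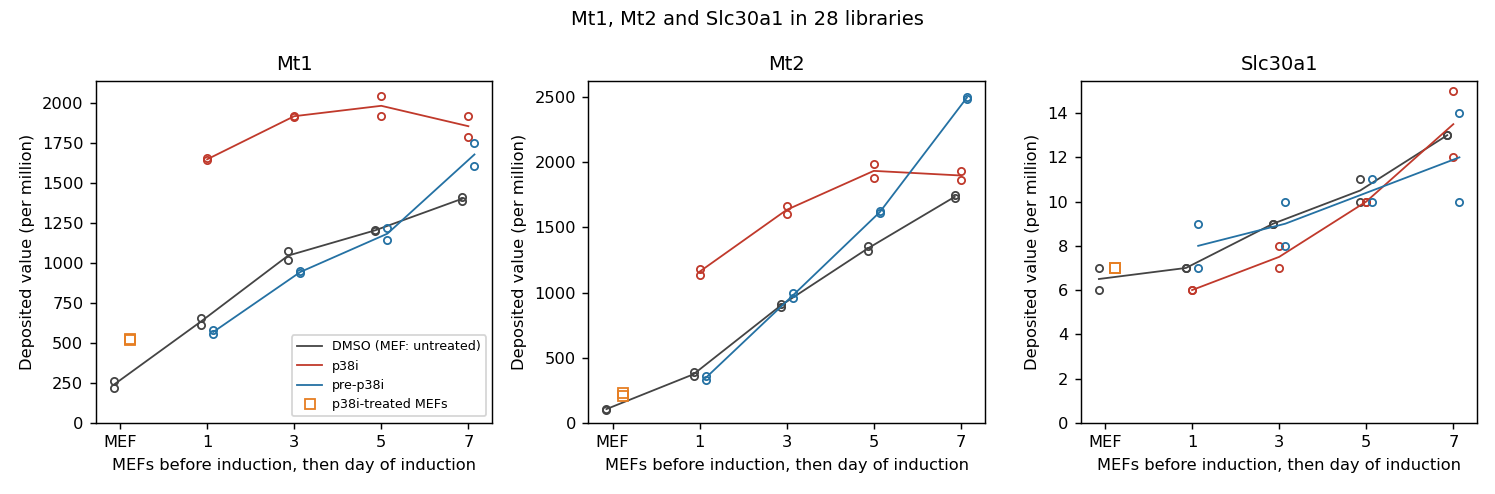
Deposited values of Mt1, Mt2 and Slc30a1 in all 28 libraries, by time point, with 1 circle or square per library and lines through the group means. In p38i cells (red), Mt1 and Mt2 are already at 1639 and 1653 and at 1137 and 1183 on day 1, while the Slc30a1 values of the 3 conditions run together from 6 to 15.

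MEFs treated with p38i before any induction held more metallothionein RNA than untreated MEFs. Mt1 stood at 520 and 525 against 219 and 258, and Mt2 at 229 and 209 against 101 and 109, with no overlap between groups. Slc30a1 stood at 7 and 7 against 7 and 6. The log2 differences were 1.13 for Mt1 (SE 0.0612, 2.19-fold, adjusted p = 1.2e-10, limma), 1.05 for Mt2 (SE 0.0514, 2.07-fold, adjusted p = 3.3e-11, limma) and 0.10 for Slc30a1 (SE 0.152, 95% interval -0.22 to 0.41, adjusted p = 0.767, limma). Mt1 and Mt2 were called higher, against 9.73% of the genes tested, and ranked 89 and 117 of 13230 by the size of the rise. The libraries of these MEFs also differed in cell type markers. The 12 fibroblast markers summed to 8076 and 8144 in treated MEFs and to 12343 and 12450 in untreated ones, and the 16 macrophage markers to between 245 and 249, with Ptprc and Aif1 at 0, and to between 349 and 368 with all 16 at 1 or more in at least 1 library. In bulk libraries, fewer cells of a type and less RNA per cell cannot be told apart, and the part of these shifts in the metallothionein result was not tested.

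On day 1 of induction in p38i, the values that led to the choice of the metallothioneins were 1639 and 1653 for Mt1, against 614 and 652 in DMSO, and 1137 and 1183 for Mt2, against 387 and 358. The log2 differences were 1.38 (2.60-fold) and 1.64 (3.11-fold), at rank 24 and 13 of the 13230 genes by rise. Slc30a1 stood at 6 and 6 in p38i and at 7 and 7 in DMSO, a log2 difference of -0.19, which quantile normalization took to -0.02. At this point, Mt1 in p38i lay above every DMSO library of any day, including the 1412 and 1388 of day 7. Mt2 lay between the DMSO libraries of day 3 and those of day 5.

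On the later days, p38i cells kept higher metallothionein values, by a shrinking margin. These libraries belong to the same condition as those of day 1, and earlier results were known when the tests were chosen. The tests of these days are thus no independent support for the choice. Mt1 stood at 1918 and 1913 on day 3, at 2044 and 1917 on day 5 and at 1919 and 1787 on day 7, above the DMSO libraries on each day. Its log2 difference from DMSO was 0.87 on day 3 (SE 0.0612, 1.83-fold, adjusted p = 4.4e-09, limma), 0.72 on day 5 (adjusted p = 5.7e-08, limma) and 0.40 on day 7 (1.32-fold, adjusted p = 4.0e-05, limma). Mt2 stood at 1666 and 1603 on day 3, at 1987 and 1880 on day 5 and at 1935 and 1861 on day 7, also without overlap with DMSO. Its difference was 0.86 on day 3 (SE 0.0514, 1.82-fold, adjusted p = 5.8e-10, limma), 0.53 on day 5 (1.44-fold, adjusted p = 2.9e-07, limma) and 0.13 on day 7 (95% interval 0.02 to 0.24, adjusted p = 0.0584, limma). The last became a call under quantile normalization, at 0.19 (adjusted p = 0.0041, limma). Both genes were thus called higher on days 3 and 5, against 5.22% and 7.87% of the genes tested, and Mt1 alone on day 7, against 16.5%.

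Slc30a1 did not pass the test on any of these days. It stood at 7 and 8, at 10 and 10, and at 15 and 12 in p38i on days 3, 5 and 7, with log2 differences from DMSO of -0.24 (95% interval -0.56 to 0.08), -0.06 (-0.38 to 0.26) and 0.04 (-0.27 to 0.36), and adjusted p of 0.296, 0.809 and 0.868 (limma). These intervals lie below the differences of Mt1 and Mt2 on days 3 and 5. The interaction between day and inhibitor tested the shrinking margin directly. Between day 3 and day 7, the difference of p38i from DMSO fell by 0.47 for Mt1 (SE 0.0865, adjusted p = 0.000833, limma) and by 0.73 for Mt2 (SE 0.0727, adjusted p = 1.3e-06, limma), against 6.42% of all genes called lower in this term, while for Slc30a1 the change was 0.28 (SE 0.215, adjusted p = 0.402, limma). Within p38i, Mt1 differed by -0.05 between day 3 and day 7 (SE 0.0612, 95% interval -0.18 to 0.08, adjusted p = 0.591, limma), while Mt2 rose by 0.22 (adjusted p = 0.00348, limma) and Slc30a1 by 0.77 (adjusted p = 0.000731, limma). The share of all genes called higher in that contrast was 21.8%.

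The margin in induced cells was also set against that in MEFs. The p38i difference of Mt1 on day 3 was smaller than that in MEFs by 0.26 (SE 0.0865, adjusted p = 0.0458, limma), against 13% of all genes called lower, and the estimates for Mt2 and Slc30a1 were -0.19 (adjusted p = 0.0792, limma) and -0.33 (adjusted p = 0.327, limma). The Mt1 call was weak. It was lost without untreated MEF replicate 1 (-0.14, adjusted p = 0.261, limma) and without any other of the 8 libraries but untreated MEF replicate 2 and, under quantile normalization, with all libraries in place (-0.24, adjusted p = 0.0820, limma). For Mt2 a call appeared without untreated MEF replicate 2 (-0.25, adjusted p = 0.0438, limma) or p38i-treated MEF replicate 2 (-0.26, adjusted p = 0.0314, limma). In p38i cells the 12 fibroblast markers summed to 3152 to 3272 on day 3, against 5097 to 5389 in DMSO, with 9 of the 12 called lower. They summed to 2799 to 2877 against 3174 to 3518 on day 5, with 7 called lower and 3 higher. On day 7 the order turned, with 2495 to 2520 against 2063 to 2181, and 1 was called lower and 4 higher. Over all genes, 16.2%, 18.7% and 17.6% were called lower on these days and 5.22%, 7.87% and 16.5% higher. The 16 macrophage markers summed to 222 to 234 in p38i on day 1, to 289 to 299 on day 3, to 290 to 294 on day 5 and to 273 to 315 on day 7, with Ptprc and Aif1 at 0 in both libraries of each day. The DMSO sums of these markers were 304 to 315, 553 to 554, 617 to 624 and 395 to 405. Epithelial markers, which appear in the mesenchymal-to-epithelial transition (MET), were summed together with pluripotency markers. The joint sums were also lower in p38i, at 23 to 28 against 68 to 75 on day 3 and at 78 to 83 against 148 to 155 on day 5. On day 7 they were 207 to 222 against 516 to 530. The part of these shifts in the metallothionein result was not tested.

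**Figure D3:**
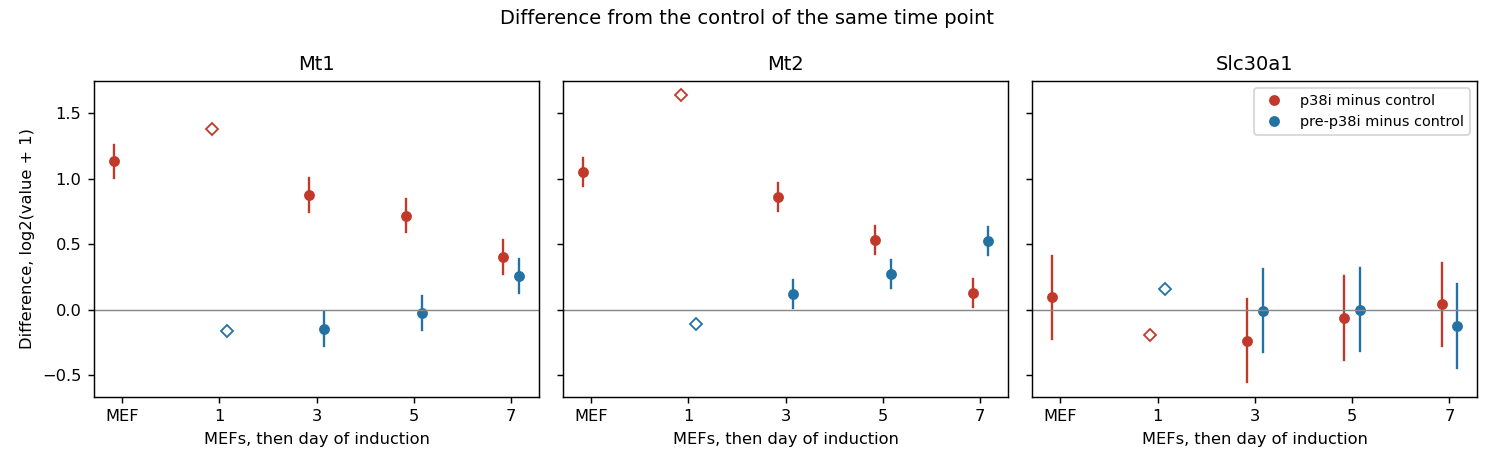
Log2 differences of p38i (red) and pre-p38i (blue) from the control of the same time point for Mt1, Mt2 and Slc30a1, where filled circles are tested values with their 95% interval and open diamonds are the untested values of day 1. The p38i difference of Mt2 falls from 1.64 on day 1 to 0.13 on day 7, while that of pre-p38i is -0.11 on day 1 and 0.52 on day 7.

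In pre-p38i cells, from which the inhibitor had been removed, the early rise was not seen and a later one was. On day 1, Mt1 stood at 579 and 555 against 614 and 652 in DMSO, and Mt2 at 332 and 357 against 387 and 358, slightly below DMSO in both cases (log2 differences of -0.16 and -0.11, not tested). On day 3, Mt1 stood at 938 and 946 and Mt2 at 959 and 995, with log2 differences of -0.15 (adjusted p = 0.0947, limma) and 0.12 (adjusted p = 0.109, limma). Neither passed the test, against 20.6% of all genes called on that day, though quantile normalization turned the Mt2 value into a call at 0.18 (adjusted p = 0.0115, limma). These comparisons use the same DMSO libraries as those of p38i.

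On days 5 and 7, Mt2 was called higher than in DMSO, and Mt1 only on day 7. Mt2 stood at 1628 and 1607 on day 5, above the 1356 and 1319 of DMSO, and at 2489 and 2503 on day 7, its highest values in the series. It rose by 0.27 on day 5 (SE 0.0514, adjusted p = 0.000524, limma) and by 0.52 on day 7 (1.44-fold, adjusted p = 2.1e-07, limma). Mt1 stood at 1145 and 1218 on day 5, around the DMSO values of 1206 and 1199, with a difference of -0.03 (95% interval -0.15 to 0.10, adjusted p = 0.806, limma). On day 7 it stood at 1751 and 1602, above DMSO, and rose by 0.26 (1.20-fold, adjusted p = 0.00329, limma). The gap between the differences of Mt2 and Mt1 was not tested. The Mt1 call of day 7 was lost without pre-p38i replicate 1 of day 7 (0.19, adjusted p = 0.0645, limma). Of all genes, 14.3% were called higher on day 5 and 15.4% on day 7.

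Slc30a1 stood at 9 and 7, at 8 and 10, at 11 and 10 and at 14 and 10 in pre-p38i on days 1, 3, 5 and 7, and on each of these days the DMSO values lay within the range of the pre-p38i ones or at its edge. Its tested differences were -0.01, 0.00 and -0.12 on days 3, 5 and 7 (95% interval on day 7 -0.44 to 0.19, adjusted p = 0.581, limma). From day 3 to day 7, pre-p38i cells raised Mt2 by 1.35 (2.55-fold, adjusted p = 6.8e-14, limma), Mt1 by 0.83 (1.78-fold, adjusted p = 1.0e-09, limma) and Slc30a1 by 0.37 (adjusted p = 0.0492, limma), against 25.6% of all genes called higher. The Slc30a1 call was lost without pre-p38i replicate 1 of day 3 (0.22, adjusted p = 0.344, limma) or of day 7 (0.14, adjusted p = 0.514, limma) and under quantile normalization (0.31, adjusted p = 0.113, limma). The gain over DMSO between these days was itself called for both metallothioneins, at 0.41 for Mt1 (SE 0.0865, adjusted p = 0.00476, limma) and 0.41 for Mt2 (SE 0.0727, adjusted p = 0.00109, limma), where 1.51% of all genes were called higher, and was -0.12 for Slc30a1 (SE 0.215, adjusted p = 0.840, limma). Pre-p38i libraries of day 7 also held the lowest fibroblast marker sums of the series (1242 and 1298), macrophage sums of 122 and 130, with Ptprc, Csf1r and Aif1 at 0, and the highest epithelial and pluripotency sums (975 and 1009), and the part of these shifts in the result was not tested.

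The timing of the inhibitor was then compared at a fixed day, p38i during induction against p38i before it. On day 1 the log2 differences, not tested, were 1.54 for Mt1 and 1.75 for Mt2. On day 3 both genes were higher in p38i, with 1.02 for Mt1 (2.03-fold, adjusted p = 1.5e-10, limma) and 0.74 for Mt2 (1.67-fold, adjusted p = 1.1e-09, limma), where 10.7% of all genes were called higher and the median gene stood at -0.161. On day 5 the differences were 0.74 (adjusted p = 8.2e-09, limma) and 0.26 (adjusted p = 0.000397, limma), against 16.3% of genes called higher. By day 7 the order of Mt2 had turned: it was lower in p38i, by a log2 difference of -0.40 (adjusted p = 2.3e-06, limma), against 29.5% of genes called lower. Mt1 differed by 0.14 at that time (95% interval 0.02 to 0.27, adjusted p = 0.0525, limma), a value that was called under quantile normalization (0.21, adjusted p = 0.00824, limma), without p38i replicate 2 (0.20, adjusted p = 0.0380, limma) and without pre-p38i replicate 1 (0.21, adjusted p = 0.0245, limma). Slc30a1 passed in none of the 3 tested days, with differences of -0.23, -0.06 and 0.17 and adjusted p of 0.240, 0.766 and 0.372 (limma).

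The balance between the metallothioneins shifted with time. The ratio of the Mt2 to the Mt1 value, formed within each library, was 0.442 ± 0.0274 (SD, n = 2) in untreated MEFs and 0.419 ± 0.0299 in p38i-treated MEFs, with the ratio of 1 treated library (0.440) between those of the untreated ones (0.461 and 0.422). In DMSO it was 0.590 ± 0.0574 on day 1 and then 0.861 ± 0.0143, 1.11 ± 0.0172 and 1.24 ± 0.0044 on days 3, 5 and 7. Mt2 thus passed Mt1 between days 3 and 5. In p38i the ratio was 0.705 ± 0.0155 on day 1, above DMSO, and then 0.853 ± 0.0217, 0.976 ± 0.0061 and 1.02 ± 0.0234, below DMSO on the last 2 days. In pre-p38i it was 0.608 ± 0.0494 on day 1 and 1.04 ± 0.0208, 1.37 ± 0.0724 and 1.49 ± 0.0997 on the later days. The pre-p38i ratios were above both other conditions in each library from day 3 on. The ratios were taken as a description, with no test.

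**Figure D4:**
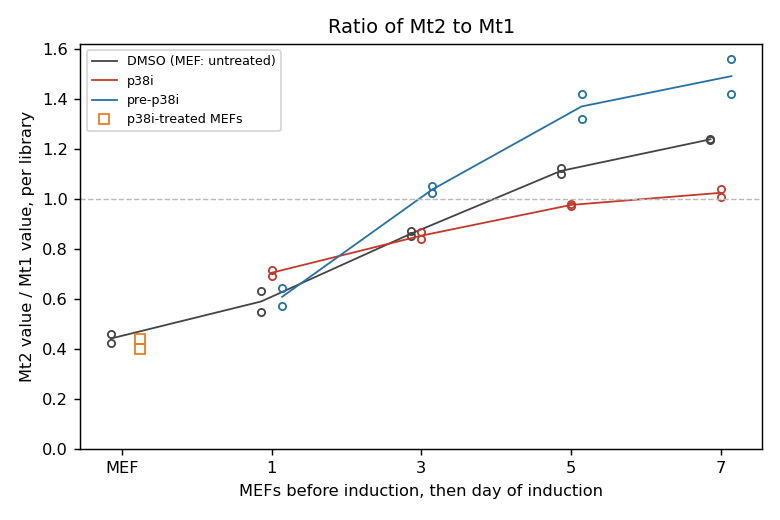
Ratio of the Mt2 to the Mt1 value in each library by time point, with lines through group means and a dashed line at equal values. DMSO crosses 1 between days 3 and 5, pre-p38i reaches 1.04 by day 3, and p38i ends at 1.02 on day 7.

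Ordered by group mean, Mt1 ran from 238.5 in untreated MEFs to 1980.5 in p38i on day 5, and Mt2 from 105 in untreated MEFs to 2496 in pre-p38i on day 7. For Mt1, 9 of the 13 steps between neighbouring groups in that order separated the libraries fully. The overlapping steps were DMSO and pre-p38i of day 5, p38i of day 1 and pre-p38i of day 7, and p38i of day 7, day 3 and day 5. For Mt2, 11 of 13 steps separated, all but pre-p38i of day 5 from p38i of day 3 and p38i of day 7 from p38i of day 5. Slc30a1 ran from 6 in p38i of day 1 to 13.5 in p38i of day 7, and in none of the 13 steps were neighbours apart. Equal values counted as overlap, and they are frequent among whole numbers this low. Sorting by mean favours separation, and no share over all genes was computed, so these counts describe the order only. The highest library exceeded the lowest 9.33-fold for Mt1, 24.8-fold for Mt2 and 2.50-fold for Slc30a1. Over the 14 group means of log2(value + 1), which share the course of induction, Pearson's r was 0.96 between Mt1 and Mt2, 0.55 between Mt1 and Slc30a1 and 0.69 between Mt2 and Slc30a1.

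The genes whose group means followed each member most closely were sought among 10665 others averaging 5 or more, over the same 14 groups. For Mt1 they were Mfsd12 (r = 0.97), Lamtor4 (0.96), Rragd (0.95), Lcmt1 (0.95) and Adi1 (0.95). Lamtor4 and Rragd encode parts of the Ragulator and Rag GTPase machinery at the lysosome, and Rragd stood at 1 and 2 in untreated MEFs, and on day 1 at 8 and 7 in DMSO against 17 and 15 in p38i. For Mt2 they were Tmx2 (0.98), Tubb4a (0.98), Ap3s2 (0.97), Ckb (0.97) and Rnd2 (0.96). Ckb, the brain-type creatine kinase, went from 147 and 134 in untreated MEFs to 710 and 726 in DMSO on day 7, when p38i cells had 1154 and 1122. For Slc30a1 they were Wwc1 (0.97), B4galt6 (0.96), Tac2 (0.95), Epcam (0.95) and Epas1 (0.94), and Epcam, an epithelial adhesion molecule that appears in MET, went from 0 and 0 in untreated MEFs to 182 and 183 in DMSO on day 7. No gene was among the nearest 5 of more than 1 member.

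The other genes of metal and stress handling were read from 9 lists with 75 genes in all, 64 of which were tested. In p38i against DMSO, 15, 22, 27 and 32 were called on days 1, 3, 5 and 7, that is 23.4%, 34.4%, 42.2% and 50.0% of them, against 16.1%, 21.4%, 26.6% and 34.1% of all genes. Of these calls 11, 19, 21 and 18 were lower and 4, 3, 6 and 14 higher. Over all genes the calls also leaned lower, with 21.6%, 24.4%, 29.6% and 48.5% of them higher. Quantile normalization, which moved the median of all genes by over 0.1 on days 3 and 5, gave 5 higher and 8 lower, 6 and 16, 12 and 16, and 14 and 17 on these days, when 41.2%, 48.3%, 53.1% and 54.5% of the calls over all genes were higher. In p38i-treated MEFs, 7 were called higher and 13 lower, against 17.9% of all genes called in either direction, with 54.4% of those calls higher. In pre-p38i, 19, 18, 24 and 34 were called on days 1, 3, 5 and 7, against 11.6%, 20.6%, 25.6% and 29.9% of all genes.

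The remaining metallothioneins were low. Mt3, known from brain, was at 0 in every MEF library and at 1 to 17 in induced ones, the highest being 17 and 13 in p38i on day 1 against 7 and 5 in DMSO (log2 difference 1.20, not called). Mt4, known from squamous epithelium, reached 9 and 10 in pre-p38i on day 7 against 3 and 0 in DMSO, its only call among these comparisons (2.39). It was at 5 or less elsewhere. Mt3 was also called higher in p38i on day 3 under quantile normalization (1.60, adjusted p = 0.0447, limma), against 1.33 and an adjusted p of 0.0753 without it.

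Of the other 9 zinc exporters of the ZnT family, 5 were tested and the rest had a mean under 1. Slc30a4, which moves zinc into vesicles, rose in p38i on day 5 (0.52) and day 7 (0.64, SE 0.0941, adjusted p = 3.1e-05, limma), from 26 and 28 in DMSO to 44 and 41 on the last day. It was also higher in p38i-treated MEFs, at 35 and 33 against 23 and 24 (0.51), and fell in pre-p38i by 0.28, 0.48 and 0.73 on days 3, 5 and 7. Slc30a5, an exporter of the secretory pathway, fell on day 5 in p38i, by 0.22 (adjusted p = 0.0490, limma), a call lost under quantile normalization (-0.13). The opposite signs of Slc30a4 in p38i and pre-p38i were not tested against each other.

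Of the 14 zinc importers of the ZIP family, 10 were tested, and in p38i 2, 2, 3 and 8 of them were called on days 1, 3, 5 and 7, against 16.1%, 21.4%, 26.6% and 34.1% of all genes. On day 7, 5 were higher and 3 lower, with a list median of 0.216 against 0 over all genes. Slc39a14 (ZIP14), an importer of zinc, iron and manganese, fell on every day and in treated MEFs, from 147 and 153 in DMSO to 100 and 111 in p38i on day 7 (-0.51, SE 0.0703, adjusted p = 1.6e-05, limma). In pre-p38i it was also below DMSO on day 7, at 111 and 113, but above it on day 3, at 151 and 138 against 131 and 120. Slc39a10 (ZIP10), which MTF-1 is known to repress, was lower in p38i on each day, at 13 and 15 against 22 and 21 on day 7 (-0.59, adjusted p = 0.000142, limma), though the calls of days 3 and 5 were lost under quantile normalization. In pre-p38i, Slc39a10 lay above DMSO on days 1, 3 and 7, at 27 and 28 on day 7, and overlapped it on day 5. Slc39a8 (ZIP8) fell on day 7 (-0.71, adjusted p = 0.00609, limma), from 11 and 11 to 8 and 5, and was higher in pre-p38i on days 3, 5 and 7 (0.72, 0.66 and 0.66). Slc39a11 rose on day 7 (0.42, adjusted p = 0.00286, limma).

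The RNA of MTF-1 itself was low, and its protein was not measured. Mtf1 stood at 6 to 16 in all 28 libraries and was called in none of the 9 comparisons with a control. With values this low, the lack of a call does not show that Mtf1 was unchanged. Of the 7 genes of its list, all tested, 2, 3, 4 and 3 were called in p38i on days 1, 3, 5 and 7, of which 1 was higher each time, against the same 16.1%, 21.4%, 26.6% and 34.1% of all genes called. That gene was Selenow, a small selenoprotein, which rose by 0.27, 0.48, 0.49 and 0.55 on these days (day 7: SE 0.0535, adjusted p = 2.0e-07, limma), from 671 and 634 to 958 and 959 on day 7, and by 0.27 in treated MEFs. Slc40a1, the iron exporter ferroportin, fell on day 3, from 16 and 14 to 4 and 6 (-1.43, SE 0.160, adjusted p = 2.0e-06, limma), and Gclc, a subunit of the enzyme that begins glutathione synthesis, on day 5 (-0.43, adjusted p = 0.0102, limma). The list median in p38i lay between -0.136 and -0.085 on the 4 days, while that of all genes lay between -0.085 and 0. The list is of mixed sign, since it holds Mtf1 itself and Slc39a10, which MTF-1 is known to repress. Its counts and median are therefore no measure of MTF-1 activity.

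**Figure D5:**
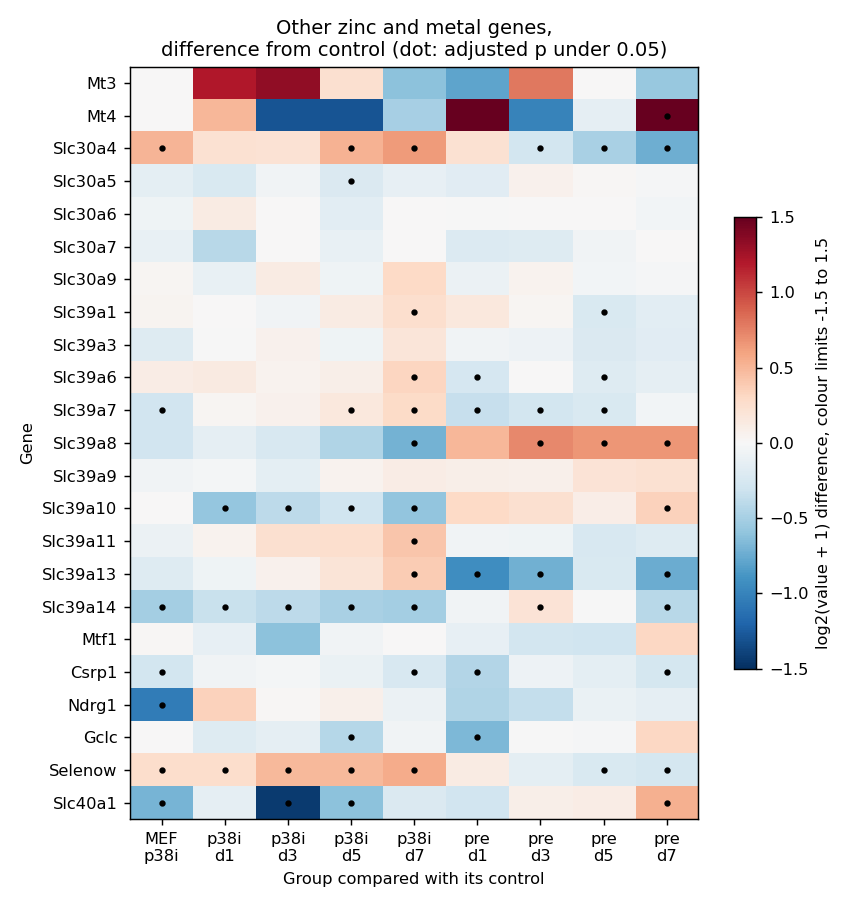
Log2 differences from the control of the same time point for the other metallothioneins, zinc transporters, Mtf1 and its other listed targets, by gene and comparison, where the colour scale ends at -1.5 and 1.5 and a dot marks an adjusted p under 0.05. Slc39a10 and Slc39a14 are lower and Selenow higher in p38i on every day, while Mtf1 carries no dot.

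Targets of NRF2, the main transcription factor of the oxidative stress response, were mostly lower in p38i from day 3 on. Of 11 NRF2 targets, all tested, 2 were called higher and 2 lower in p38i on day 1, 7 lower and none higher on day 3, 9 lower and none higher on day 5, and 7 lower and 1 higher on day 7, with list medians of -0.161, -0.585, -0.539 and -0.39. Over all genes, 12.6%, 16.2%, 18.7% and 17.6% were called lower on these days, with medians of -0.085, -0.076, -0.076 and 0. Under quantile normalization the calls were 2 higher and 2 lower, 6 lower, 8 lower, and 7 lower and 1 higher. Nqo1, a quinone reductase, fell from 90 and 83 to 30 and 29 on day 5 (-1.52, SE 0.0725, adjusted p = 2.0e-11, limma) and from 236 and 234 to 83 and 79 in treated MEFs (-1.53). Slc7a11, the cystine importer, fell on day 5 from 14 and 17 to 6 and 6 (-1.23, SE 0.152, adjusted p = 5.9e-06, limma), Gclm, the other subunit of the glutathione enzyme, on day 3 (-0.72, adjusted p = 0.00426, limma), and Gsr, glutathione reductase, on day 7 (-0.64, adjusted p = 2.9e-06, limma). The genes that were higher on day 1 were Hmox1, heme oxygenase, at 250 and 247 against 172 and 185 (0.48), and Srxn1, sulfiredoxin (0.47), named after their values were seen. Lower values were not limited to p38i during induction. In p38i-treated MEFs, 6 of the 11 were called lower and none higher (median -0.175). Over all genes, 17.9% were called in either direction there, and 54.4% of those calls were higher. In pre-p38i, 6 were lower and none higher on day 1 (median -0.317). Over all genes, 11.6% were called in either direction on that day, and 46.4% of those calls were higher. On days 3, 5 and 7, 2, 4 and 3 were lower in pre-p38i and 2, 1 and 3 higher, against 20.6%, 25.6% and 29.9% called in either direction.

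Of 10 glucocorticoid receptor targets, 8 were tested. In p38i, 4 were called lower on day 1 and 5 on day 3, with none higher on either day, against 12.6% and 16.2% of all genes called lower. On day 5, 1 was higher and 2 lower, against 7.87% of all genes called higher and 18.7% lower. On day 7, 2 were higher and 1 lower, against 16.5% and 17.6%. The 3 of 8 called on day 7 lie near the 34.1% of all genes called. Under quantile normalization the counts were 1 lower on day 1, 5 lower on day 3, 3 higher and 1 lower on day 5, and 2 higher and 1 lower on day 7. Sgk1, a kinase, fell by 0.79 on day 3 (SE 0.107, adjusted p = 2.1e-05, limma), from 16 and 20 to 9 and 11. Klf9, a transcription factor, fell by 0.73 (adjusted p = 0.000431, limma) and Per1, a clock gene, by 0.59 (adjusted p = 0.00496, limma) on the same day. Dusp1, a phosphatase of MAP kinases that include p38, rose on day 7 from 21 and 18 to 39 and 41 (1.00, SE 0.101, adjusted p = 3.2e-07, limma) and fell by 0.90 in pre-p38i.

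Of 9 heat shock genes, all tested, 1, 3, 3 and 5 were called in p38i on days 1, 3, 5 and 7, against 16.1%, 21.4%, 26.6% and 34.1% of all genes, and only Serpinh1 on day 7 was higher. Under quantile normalization 1, 2, 2 and 3 were called lower, in place of 1, 3, 3 and 4. Hspb1, a small heat shock protein that is phosphorylated downstream of p38, fell from 341 and 306 to 166 and 152 on day 7 (-1.02, SE 0.0815, adjusted p = 1.7e-08, limma), and Hsph1 on day 5 (-0.37, adjusted p = 0.00734, limma). Hsp90aa1 fell by 0.31 on day 7 (adjusted p = 2.8e-06, limma). Serpinh1, the collagen chaperone, fell on days 1 and 3 (-0.25 and -0.26) and rose on day 7 (0.33, adjusted p = 7.9e-06, limma).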

How the data were processed

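RNA-seq values of Mt1, Mt2 and Slc30a1 were read from 28 libraries in 14 groups of 2, with groups and replicate numbers taken from the sample labels. The authors deposited 1 whole-number score per gene and library, and the library sums of 991287 to 992537 match TPM rounded down to whole numbers. The submitters' processing notes name bcl2fastq, Bowtie2 2.2.5, RSEM 1.3.0 and the builds mm10 and hg38. The annotation, the rounding and the strand setting are not given in the sources used here. Of the gene identifiers, 99.6% are in GENCODE M21 (GRCm38), and 92.5% of genes have the same coordinates there. Depth is unknown, so no counting interval was computed. Whole numbers limit the precision of low genes such as Slc30a1. The library kit, the way RNA was extracted and the MEF medium are given differently by the labels and the paper.

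On the log2(value + 1) scale, 13230 genes (mean of 1 or more) were fitted in a single model of all groups by limma 3.58.1, with a trended eBayes, under R 4.3.3, with Benjamini-Hochberg adjustment over all genes tested. The script was tested on simulated data. No member was tested in a contrast that uses a p38i or DMSO library of day 1. The members, the gene lists and these tests were chosen with earlier results of these data known. Named genes are the members, in each list up to 4 genes averaging 5 or more with the largest called difference of p38i from DMSO on any day, and for each member the 5 genes of highest correlation over group means. Coding sequences were cut from GENCODE M21 transcripts, promoters come from RefSeq, similar transcripts were found with BLAST 2.17.0+, and figures were drawn with matplotlib 3.10.9. No protein sequence was used here.

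Alternatives were a pseudocount of 0.1, no filter on low values (only genes at 0 in every library left out), a minimum mean of 5, quantile normalization, a replicate block, a fit restricted to the groups compared, and leaving out each replicate. Same-numbered libraries did not deviate together. ESC and iPSC libraries were not analysed here.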

Additional observations from a re-analysis of the deposited data

Results flagged for a closer look

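In 5 cases the effect of the inhibitor on a metallothionein differed between time points by the test of the difference itself. The log2 difference of p38i from DMSO was smaller on day 7 than on day 3, by -0.47 for Mt1 (SE 0.0865, adjusted p = 0.000833, limma) and by -0.73 for Mt2 (SE 0.0727, adjusted p = 1.3e-06, limma). That of pre-p38i from DMSO was larger on day 7 than on day 3, by 0.41 for Mt1 (adjusted p = 0.00476, limma) and by 0.41 for Mt2 (adjusted p = 0.00109, limma). The p38i difference of Mt1 on day 3 was smaller than that in MEFs, by -0.26 (adjusted p = 0.0458, limma). In the first 4 cases every alternative that was run kept the call, and the fifth lost it in most of them (-0.14 without untreated MEF replicate 1, adjusted p = 0.261, limma). For each gene, the terms between day 3 and day 7 of p38i and of pre-p38i use the same 4 DMSO libraries, and the term against MEFs shares the DMSO and p38i libraries of day 3 with the first of them. Groups of 2 libraries were too small to look for outlying samples.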

How the results depend on the processing

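The rises of Mt1 in p38i-treated MEFs and in p38i on days 3, 5 and 7, and those of Mt2 in p38i-treated MEFs, in p38i on days 3 and 5 and in pre-p38i on days 5 and 7, kept their direction and call in every alternative run. With a fit of only the groups compared, which leaves few degrees of freedom, the calls in the metal and stress lists went from 15, 22 and 27 to 5, 8 and 7 in p38i on days 1, 3 and 5, from 20 to 11 in p38i-treated MEFs and from 19, 18, 24 and 34 to 5, 6, 7 and 16 in pre-p38i on days 1, 3, 5 and 7. That fit also ended the calls of Mt1 in pre-p38i on day 7 (0.26, adjusted p = 0.0856), of Mt1 between day 3 and MEFs (-0.26, adjusted p = 0.209), of Mt2 and Slc30a1 from day 3 to day 7 in p38i (0.22 and 0.77, adjusted p of 0.0640 and 0.0821) and of Slc30a1 from day 3 to day 7 in pre-p38i (0.37, adjusted p = 0.299), all by limma. Quantile normalization reversed the untested Slc30a1 difference between untreated MEFs and DMSO day 1, from 0.10 to -0.24. It took the Slc30a1 rise to day 3 to 0.0029, its later rises in DMSO to 0.40 and in pre-p38i to 0.31, and the Mt1 term between day 3 and MEFs to -0.24, none of them called, and it called Mt1 in p38i against pre-p38i on day 7 (0.21) and Mt2 in p38i on day 7 (0.19) and in pre-p38i on day 3 (0.18). Untested day 1 values moved to 1.34 for Mt1 and 1.69 for Mt2 in DMSO against MEFs, 1.69 for Mt2 in p38i against pre-p38i, and, for Slc30a1, -0.020 in p38i against DMSO and -0.20 against pre-p38i. With a pseudocount of 0.1, the Mt1 term between day 3 and MEFs (-0.26, adjusted p = 0.0511) and the Slc30a1 rise in pre-p38i (0.40, adjusted p = 0.0556) were not called by limma, and without a filter the same values stood at -0.26 (adjusted p = 0.0707) and 0.37 (adjusted p = 0.0541). A minimum mean of 5 called Mt1 in p38i against pre-p38i on day 7 (0.14, adjusted p = 0.0480, limma).

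Leaving out 1 library gave, for untested values of day 1, 1.29 to 1.53 for Mt1 and 1.76 to 1.87 for Mt2 in DMSO against MEFs, 1.58 to 1.69 for Mt2 in p38i, 1.70 to 1.80 for Mt2 in p38i against pre-p38i, -0.17 to -0.056 for Mt2 and 0 to 0.32 for Slc30a1 in pre-p38i, and -0.51 to -0.19 for Slc30a1 in p38i against pre-p38i. Among tested values whose call changed, it gave -0.38 to -0.14 for Mt1 and -0.26 to -0.13 for Mt2 in the term between day 3 and MEFs, 0.081 to 0.21 for Mt1 in p38i against pre-p38i on day 7, 0.19 to 0.32 for Mt1 in pre-p38i on day 7, and, for Slc30a1, 0.32 to 0.51 from MEFs to day 3, 0.49 throughout from day 3 to day 7 in DMSO and 0.14 to 0.59 in pre-p38i. Some of these fits leave a group with 1 library, which is then assumed to vary like the others. With the replicate block, Mt1 in p38i against pre-p38i on day 7 became a call at 0.14 (adjusted p = 0.0410, limma), no other call of a member changed, and the list counts stayed within 1.5 times (31 in place of 32 in p38i on day 7). Replicate numbers do not pair the libraries: over 91 pairs of groups, the correlation of same-numbered deviations ran from -0.0838 to 0.0874. The cause of these changes was not tested. Depth is unknown and sets no stated limit here.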

Other observations

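Copper and iron handling genes were read beside the zinc genes, since metallothioneins also bind copper. Of 8 copper genes, 7 were tested, and 1, 1, 2 and 2 were called in p38i on days 1, 3, 5 and 7, which is near or below the 16.1%, 21.4%, 26.6% and 34.1% of all genes called. Sod1, the copper-zinc superoxide dismutase, was lower on each day, at 822 and 754 in p38i against 1008 and 920 in DMSO on day 5 (-0.29, SE 0.0453, adjusted p = 8.4e-05, limma). Atox1, a copper chaperone, rose on day 5 (0.25, adjusted p = 0.0461, limma), and Atp7a, a copper-exporting ATPase, rose on day 7 from 15 and 16 to 22 and 22 (0.48, adjusted p = 0.00072, limma).

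Of 8 iron genes, all tested, 2, 3, 4 and 3 were called in p38i on these days, against the same shares of all genes, and the count of day 7 is near its share. Tfrc, the transferrin receptor, went from 62 and 65 in untreated MEFs to 1 and 2 in DMSO on day 3 and back to 25 and 27 on day 7, when p38i libraries stood at 8 and 9 (-1.51, SE 0.148, adjusted p = 2.4e-07, limma). It was higher in pre-p38i on days 5 and 7 (1.00 and 0.47). Ftl1, the ferritin light chain and one of the highest genes of each library, stood at 15845 and 15668 in p38i on day 1 against 10340 and 10179 in DMSO (0.62, SE 0.0386, adjusted p = 1.9e-09, limma), and quantile normalization took this to 0.34 (adjusted p = 0.00395, limma). Ftl1 was also called higher in p38i on days 3, 5 and 7 (0.39, 0.36 and 0.49) and lower in pre-p38i on all 4 days, but its differences on days 3, 5 and 7 in p38i were not called under quantile normalization. Steap3, a ferric reductase, rose in p38i on day 7 (0.50, adjusted p = 0.0104, limma) and in p38i-treated MEFs, from 19 and 17 to 36 and 37 (0.98).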
